A study of Homo sapiens with 12 samples.

Results

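Hyaluronan is a long sugar polymer of the extracellular matrix, and the genes described here make it, bind it, take it up or cut it. The set holds 10 named genes: the synthases HAS1, HAS2 and HAS3, the receptors CD44, HMMR and STAB1, the hyaluronidases HYAL1, HYAL2 and HYAL3, and TNFAIP6, which encodes the secreted binding protein TSG-6. A gene entered through array probe sets annotated with its symbol alone, and the probe set with the highest mean over the 12 arrays stood for the gene. This found 7 of the 10 genes, each with 1 probe set, out of 18417 genes named in the same way. HAS1, HYAL1 and HYAL3 are not analysed here. Probe sets were thus selected on their mean level over all arrays, which is given as a description only. The differences between groups were not part of the rule, although the genes were proposed with earlier results of these data known.

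Messenger RNA was measured on 12 Affymetrix arrays in A549, a human lung adenocarcinoma line, and HTB56, a human lung cancer line whose other name is Calu-6. A0R and H0R are the unselected parents (0 rounds). A3R and H3R are what came out of 3 rounds in mice, in which cells injected into a vein were taken from the lung nodules they formed. Every group had 3 arrays, so the 4 groups make up all 12. All groups carry the label untreated for 5-azacytidine, an inhibitor of DNA methylation. The labels do not say whether a selected line is a clone or a pool, nor whether the 3 arrays of a group came from separate cultures, so each p-value measures only the spread between these samples.

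HAS enzymes sit in the plasma membrane, join UDP-glucuronic acid and UDP-N-acetylglucosamine and push the growing chain out of the cell. CD44 is the main surface receptor, HMMR encodes RHAMM, which binds hyaluronan at the cell surface and works on the mitotic spindle inside the cell, and STAB1 encodes a scavenger receptor of macrophages and sinusoidal endothelium. HYAL2 is anchored at the cell surface and cuts long chains into fragments, and TSG-6 transfers heavy chains of inter-alpha-inhibitor onto hyaluronan. In carcinomas hyaluronan and CD44 are widely studied in adhesion, migration and spread.

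The promoters of CD44, HAS3 and TNFAIP6 are printed because these are the genes of the set, besides HAS2, for which a difference between groups was called below, in TNFAIP6 against values near background. Each sequence is the 250 bases before an annotated start, on the plus strand, from RefSeq (build GRCh38.p14), 5′ to 3′. The CD44 and TNFAIP6 windows adjoin the first base of the gene. The HAS3 window lies inside the span of its gene (69083484 to 69118719), so it does not precede the first base of HAS3. Matches to 4 motifs are in capitals: the AP-1 motif TGANTCA, the GC box GGGCGG, the TATA box TATAAA and the CCAAT box CCAAT, searched on both strands.
CD44, chr11:35138921-35139170: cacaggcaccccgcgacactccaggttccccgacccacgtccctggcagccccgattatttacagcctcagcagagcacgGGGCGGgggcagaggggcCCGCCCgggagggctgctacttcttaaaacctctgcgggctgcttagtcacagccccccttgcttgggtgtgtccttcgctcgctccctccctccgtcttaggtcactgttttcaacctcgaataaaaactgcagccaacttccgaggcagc
HAS3, chr16:69107290-69107539: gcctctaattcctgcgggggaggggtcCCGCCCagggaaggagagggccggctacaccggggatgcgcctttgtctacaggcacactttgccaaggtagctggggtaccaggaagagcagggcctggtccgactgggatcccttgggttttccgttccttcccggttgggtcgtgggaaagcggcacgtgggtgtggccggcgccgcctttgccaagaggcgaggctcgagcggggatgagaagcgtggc
TNFAIP6, chr2:151357342-151357591: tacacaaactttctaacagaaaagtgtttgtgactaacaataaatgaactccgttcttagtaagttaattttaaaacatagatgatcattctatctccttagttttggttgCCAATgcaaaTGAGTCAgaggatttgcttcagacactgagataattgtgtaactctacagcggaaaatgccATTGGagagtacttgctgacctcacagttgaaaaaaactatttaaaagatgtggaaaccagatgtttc
The CD44 window held 2 GC boxes and the HAS3 window 1, a motif found in 42.6% of 35116 windows of the same length. The TNFAIP6 window held no GC box, but 1 AP-1 match, found in 6.6% of windows, and 2 CCAAT matches, found in 32.0%. TATAAA was in none of the 3 windows and in 10.7% of all. The windows also differed in base composition, with 15 CpG dinucleotides in CD44, 18 in HAS3 and 2 in TNFAIP6, against a median of 11. These matches describe the letters of the windows and are no evidence of binding.

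Values are log2 signals after RMA, which subtracts background, equalises the arrays' distributions and gives 1 value per probe set. A step of 1 is a 2-fold difference. Array medians lay between 5.55 and 5.67, and the 20th percentile of an array, used here as a limit for dim genes, averaged 3.48. Differences are called where limma's p, adjusted over the 16939 genes tested, is below 0.05, in a fit with 1 mean per group and a spread shared over all 12 arrays. All 7 genes passed the filter on dim values, 6 of them on all 12 arrays. TNFAIP6 was above the limit on 6 of 6 A549 arrays and 2 of 6 HTB56 arrays, so it passed through A549, where it was higher. One array stood apart: over 39 genes bright in HTB56 and low in A549, A0R replicate 2 lay 0.55 above the A549 median, against -0.10 to 0.03 on the other 5 A549 arrays. Among the 7 genes and the 5 further lists, the calls between the parents or in A549 that were lost without it are named. HAS2 and CD44, both higher in HTB56, read lowest of the A0R arrays on that array. Replicate 2 was, however, the lowest HAS2 array in all 4 groups, and the A0R readings of CD44 spanned only 10.72 to 10.81. Whether the excess on that array reaches these genes was not tested.

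HAS2, the synthase gene, was higher after selection in both lines and by nearly the same amount. The A0R arrays read 6.15, 5.73 and 6.50 in the order of replicates 1, 2 and 3, and the A3R arrays 7.72, 7.13 and 7.95. In HTB56 the H0R arrays read 7.45, 6.75 and 7.48, and the H3R arrays 8.66, 8.39 and 9.02. Every selected array lay above every unselected array of its own line. The group means were 6.13 ± 0.39 (SD, n = 3) in A0R, 7.23 ± 0.41 in H0R, 7.60 ± 0.43 in A3R and 8.69 ± 0.31 in H3R. In that order the arrays of the neighbours H0R and A3R overlapped, while A0R lay below and H3R above all other arrays. Between arrays of the same replicate number, A3R was above H0R by 0.27, 0.37 and 0.47, a difference that was not tested because it mixes line and selection.

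In A549 HAS2 rose by 1.48 log2 units (SE 0.25, limma adjusted p = 0.0056), a fold of 2.78 with a 95% interval from 1.91 to 4.04, and it was the 14th largest rise of the 16939 genes. Without A0R replicate 2 it was 1.28 (limma adjusted p = 0.036). In HTB56 the rise was 1.46 (SE 0.25, limma adjusted p = 0.00077), a fold of 2.75 with an interval from 1.895 to 3.996, and it ranked 64th among rises. The difference of the 2 changes, HTB56 minus A549, was -0.01, with an interval from -0.78 to 0.75 (limma adjusted p = 0.99). In this fit a difference of up to about that size in either direction is thus within the error. With the replicate number as a block the interval was narrower, from -0.30 to 0.27 (limma adjusted p = 0.96). In bulk RNA fewer cells with a transcript and less of it per cell cannot be told apart.

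**Figure D1:**
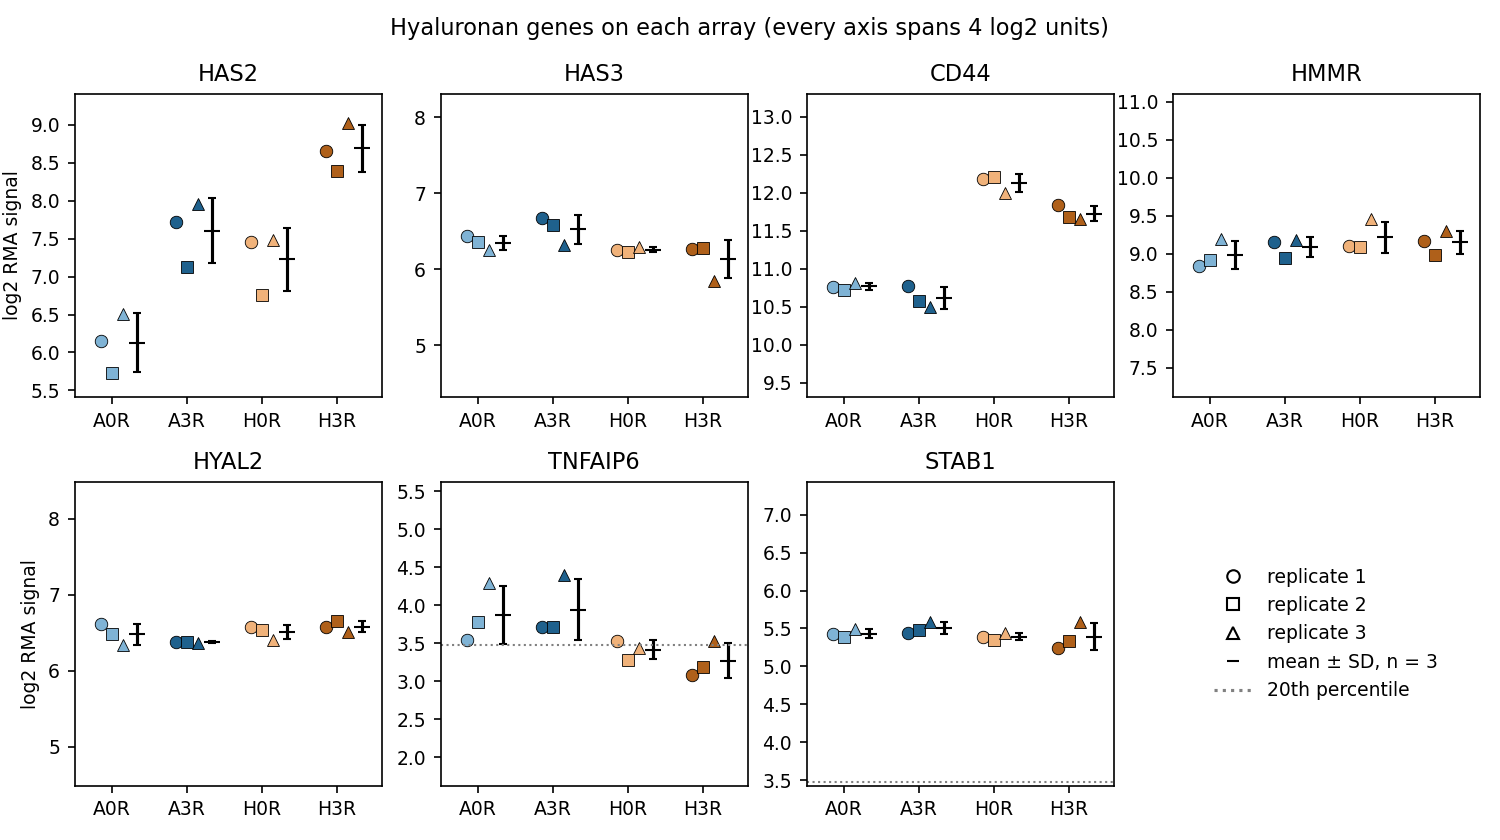
Log2 RMA signal of each of the 7 hyaluronan genes on each of the 12 arrays, by group, with the marker shape giving the replicate number and the bar the mean ± SD (n = 3); each axis spans 4 log2 units and the dotted line is the mean 20th percentile of 3.48. HAS2 steps up from A0R to A3R and from H0R to H3R, CD44 separates the lines, and the TNFAIP6 arrays lie around the dotted line.

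The spread of HAS2 within a group followed the replicate number. Replicate 2 was the lowest and replicate 3 the highest array in all 4 groups. Taken between arrays of the same number, the rise was 1.58, 1.40 and 1.45 in A549 and 1.21, 1.64 and 1.54 in HTB56. Those 6 differences had an SD of 0.09 in A549 and 0.23 in HTB56, while the SD within a group of arrays was 0.31 to 0.43. The line difference of HAS2 held in the same way, with 3 of 3 same-numbered pairs higher in HTB56 both before selection (1.30, 1.02 and 0.98) and after it (0.93, 1.27 and 1.06).

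**Figure D2:**
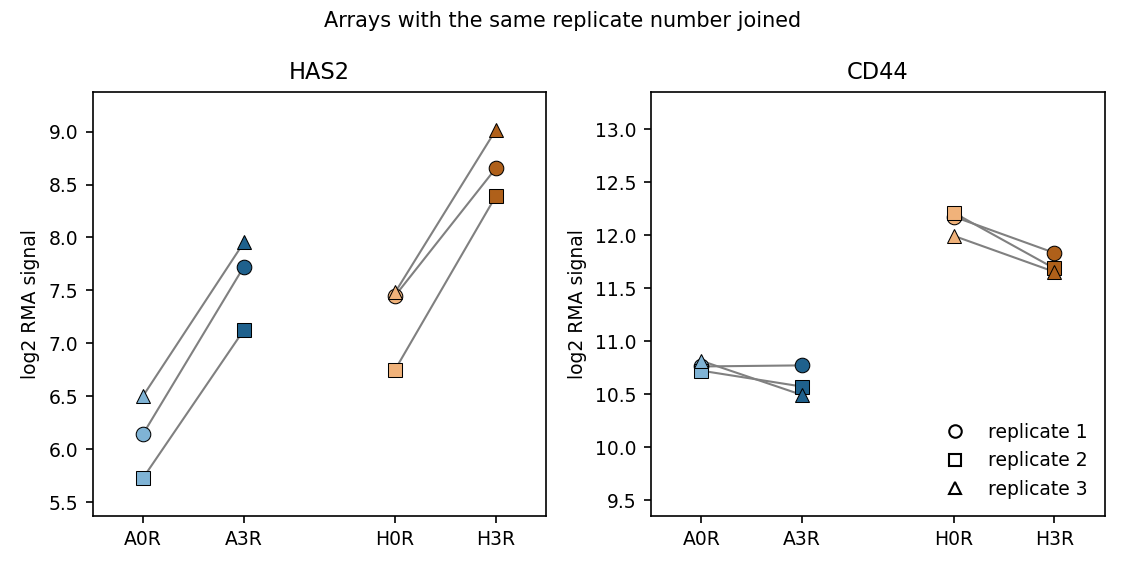
Log2 RMA signal of HAS2 (left) and CD44 (right) with arrays of the same replicate number joined by a line from the unselected to the selected group of each line; shapes give the number and both axes span 4 log2 units. The 3 HAS2 lines run upward side by side in A549 and in HTB56, and the CD44 lines run downward in HTB56 from a higher level than in A549.

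Between the lines HAS2 was higher in HTB56. Before selection the difference was 1.10 (SE 0.25, limma adjusted p = 0.0021), a fold of 2.15 with an interval from 1.48 to 3.12, and 0.90 without A0R replicate 2 (adjusted p = 0.014). After selection it was 1.09 (SE 0.25, adjusted p = 0.0024), a fold of 2.12 with an interval from 1.46 to 3.08. These comparisons share samples with those of selection, so the 4 values are set side by side and not correlated.

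HAS3, the synthase associated with shorter chains, was not called with selection in either line. Its arrays read 6.43, 6.36 and 6.25 in A0R and 6.67, 6.58 and 6.32 in A3R, then 6.26, 6.23 and 6.29 in H0R and 6.27, 6.28 and 5.84 in H3R. The groups overlapped in each line, and the lowest value, H3R replicate 3, stood below the other 11 arrays. The change with selection was 0.18 in A549 (95% interval -0.10 to 0.45, limma adjusted p = 0.76) and -0.13 in HTB56 (-0.40 to 0.15, adjusted p = 0.61). Both intervals end below the lower bounds of the HAS2 rise. Between the selected lines HAS3 was lower in HTB56 by -0.39 (SE 0.13, limma adjusted p = 0.022). That call was lost without H3R replicate 3 (-0.25, adjusted p = 0.118), A3R replicate 1 (0.0889) or A3R replicate 2 (0.0688), and in a fit of these 6 arrays alone (0.0534).

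CD44, the main receptor, was set apart by line and fell with selection in HTB56. The A549 arrays read 10.76, 10.72 and 10.81 before and 10.77, 10.57 and 10.49 after selection, and the HTB56 arrays 12.18, 12.21 and 11.995 before and 11.83, 11.69 and 11.655 after. All 6 HTB56 arrays lay above all 6 A549 arrays, by 1.36 between the unselected groups (SE 0.11, limma adjusted p = 5.66e-08) and by 1.11 between the selected ones (SE 0.11, adjusted p = 6.14e-07), which are folds of 2.57 and 2.16. CD44 was read by 1 probe set, and splice forms of the gene were not separated.

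In HTB56 the fall of CD44 was -0.40 (SE 0.11, limma adjusted p = 0.0133), a fold of 0.756, with no overlap of the groups. In the fit without the replicate block the call was lost without H0R replicate 1 (0.0533), H0R replicate 2 (0.0614), H3R replicate 2 (0.0535) or H3R replicate 3 (0.0536), with the change between -0.36 and -0.38 each time. With the replicate number as a block and all 12 arrays the call was kept (limma adjusted p = 0.00384). In A549 the change was -0.15 (95% interval -0.38 to 0.07, adjusted p = 0.734), and the groups overlapped. The test of the difference between the lines was not passed (-0.25, interval -0.57 to 0.07, adjusted p = 0.353), so the fall is not shown to differ between them. In selected HTB56 the synthase gene HAS2 was thus higher and the receptor gene CD44 lower than in the parent, and both lay above their levels in either A549 group.

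HMMR, the RHAMM gene, overlapped between every pair of groups. Its arrays read from 8.84 to 9.19 in A0R, 8.94 to 9.18 in A3R, 9.09 to 9.45 in H0R and 8.99 to 9.30 in H3R. The change with selection was 0.11 in A549 (95% interval -0.17 to 0.40) and -0.07 in HTB56 (-0.35 to 0.22), and neither change passed the test. Replicate 3 was the highest array of HMMR in all 4 groups, as for HAS2. The higher level in H0R than in A0R, 0.23, was called only with the replicate number as a block (limma adjusted p = 0.0345, against 0.175 without it).

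HYAL2, the surface hyaluronidase, also varied little, from 6.33 to 6.66 over all 12 arrays. Its change was -0.10 in A549 (95% interval -0.31 to 0.11, limma adjusted p = 0.861) and 0.07 in HTB56 (-0.14 to 0.29, adjusted p = 0.716). The selected lines did not overlap, with H3R at 6.58 ± 0.07 and A3R at 6.38 ± 0.01 (SD, n = 3). This difference of 0.20 was not called (adjusted p = 0.114), but was with the replicate block (0.0376) and with array weights (0.0367).

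TNFAIP6, the TSG-6 gene, was dim. The arrays read 3.54, 3.78 and 4.29 in A0R, 3.71, 3.71 and 4.40 in A3R, 3.53, 3.28 and 3.43 in H0R and 3.08, 3.19 and 3.53 in H3R. It was above the 20th percentile on 1 of 3 arrays in each HTB56 group, so values there are near background and the differences between the lines are a description. The change with selection was 0.07 in A549 (95% interval -0.37 to 0.51) and -0.15 in HTB56 (-0.59 to 0.30), neither called. The fitted difference of H3R from A3R was -0.67 (SE 0.21, limma adjusted p = 0.0153), a call lost without A3R replicate 3 (-0.44, 0.0812) or H3R replicate 1 (-0.58, 0.066). Between the parents the difference of -0.46 was not called (adjusted p = 0.0886), but was with the replicate block (0.0165) and without A0R replicate 1 (-0.62, 0.033) or A3R replicate 3 (0.0404).

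STAB1, the scavenger receptor gene, stayed between 5.24 and 5.59 on all 12 arrays. Its changes with selection were 0.07 in A549 (95% interval -0.15 to 0.30) and 0.00 in HTB56 (-0.22 to 0.22). The largest difference of any pair of groups compared was -0.11, between H3R and A3R (limma adjusted p = 0.413). For STAB1 the 4 group means spanned 0.12, about the SD of 0.10 within groups, whereas for HAS2 they spanned 2.56 against 0.39.

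**Figure D3:**
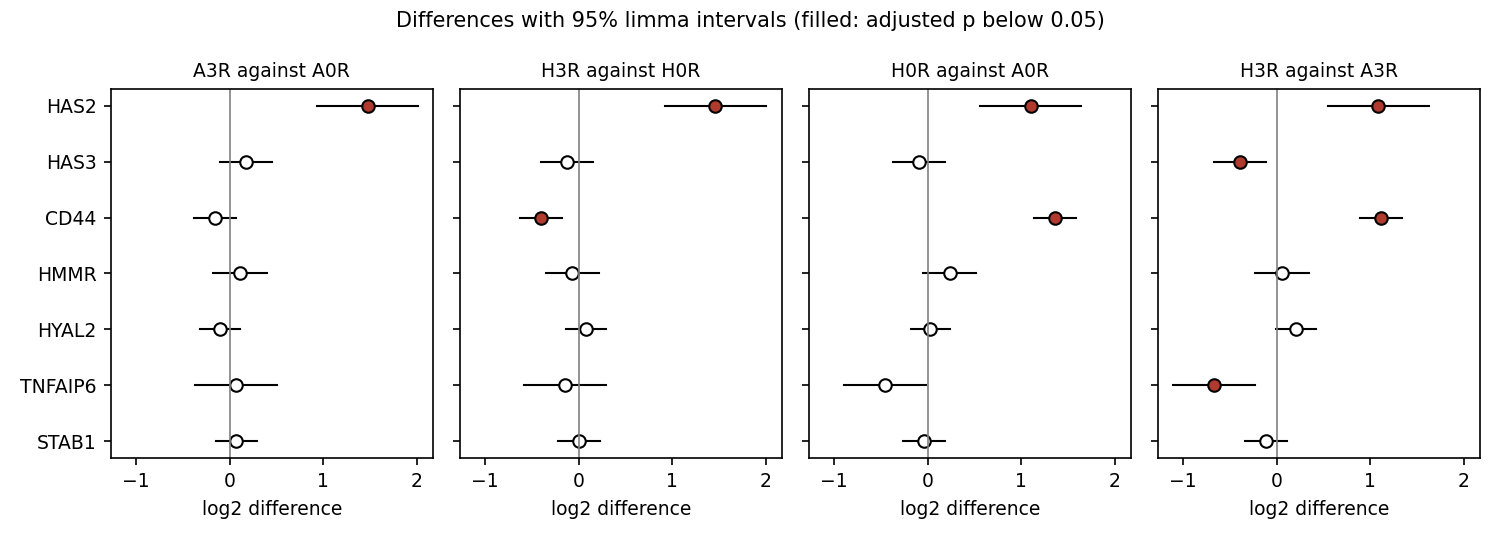
Log2 differences of the 7 genes in 4 comparisons with 95% limma intervals as horizontal lines, filled where the adjusted p is below 0.05. HAS2 is right of 0 in all 4 panels (1.48, 1.46, 1.10 and 1.09), CD44 is left of 0 in H3R against H0R (-0.40) and right of it between the lines, and the intervals of HMMR, HYAL2 and STAB1 include 0 throughout.

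Counted over the set, 1 of 7 genes was called in A549, where 1.75% of all genes were, and 2 of 7 in HTB56, where 19.5% were. The difference of changes was called for 0 of 7 genes by limma, against 11.8% of all, and 0 of the 7 had an unadjusted p below 0.05. Between the lines 2 of 7 were called before selection (45.2% of all) and 4 of 7 after it (44.6%). The first share is under the background, and the second is near it. With the replicate block these counts were 4 and 5, against 53.7% and 52.7% of all genes. Leaving out TNFAIP6, which passed the filter through the line where it was higher, they were 2 and 3 without the block and 3 and 4 with it. The arrays did not overlap for 1 of 7 genes in A549 (12.7% of all), 2 in HTB56 (34.3%), 3 between the parents (53.2%) and 5 between the selected lines (51.6%). TNFAIP6 was among the 3 and among the 5. The median change of the 7 genes was 0.07 in A549 and -0.07 in HTB56, beside -0.01 and 0.02 over all genes. Among all genes 0.945% were called higher and 0.809% lower in A549, 8.57% and 10.9% in HTB56, 24.9% and 20.3% between the parents, and 24.9% and 19.7% between the selected lines. For the difference of changes these shares were 5.22% and 6.58%. They are the background of the counts by direction that follow.

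Genes that supply the sugars of hyaluronan differed by line. Of 9 tested out of 11 listed, limma called 0 in A549 (0 at an unadjusted p below 0.05) and 0 in HTB56 (2 at that p). With the replicate block 2 were called higher in HTB56, where 12.9% of all genes were: UGP2, which makes UDP-glucose (0.31, adjusted p = 0.0211), and GNPNAT1 of the UDP-N-acetylglucosamine branch (0.33, 0.0145). The median changes were 0.04 and -0.07. UGDH, the dehydrogenase that makes UDP-glucuronic acid, averaged 12.48 ± 0.14 (SD, n = 3) in A0R and 9.91 ± 0.15 in H0R, lower by -2.57 (SE 0.13, limma adjusted p = 4.82e-10). Its means after selection were 12.48 in A3R and 9.76 in H3R. HK2, a hexokinase gene, was higher in H0R by 2.36 (SE 0.29) and UAP1, which makes UDP-N-acetylglucosamine, by 1.40 (SE 0.13). The HK2 reading of 6.66 on A0R replicate 2 was above the 5.54 and 5.52 of its companions, and without that array the difference was 2.74. In all 8 of 9 differed between the parents, 3 higher and 5 lower in HTB56, and 9 of 9 between the selected lines, 4 and 5. HTB56 therefore carried more mRNA of HAS2, CD44, HK2 and UAP1 and less of UGDH than A549, and the list as a whole was mixed in direction.

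Among 13 tested of 16 further receptors and degrading enzymes, 0 were called in A549 (2 at an unadjusted p below 0.05) and 2 were called lower in HTB56, 1 of them near background. CEMIP2, a cell surface protein reported to degrade hyaluronan, read 9.51, 9.63 and 9.52 in H0R and 9.01, 8.93 and 8.79 in H3R. It fell by -0.64 (SE 0.12, limma adjusted p = 0.00105), and the change differed from that in A549 by -0.89 (adjusted p = 0.00229). HYAL4, at 3.68 in H0R and 3.25 in H3R, was above the 20th percentile on 3 of 3 H0R arrays, 0 of 3 H3R arrays and 1 of 6 A549 arrays. It thus passed the filter through H0R, its difference is a description, and it lost its call without H0R replicate 2, H3R replicate 2 or H3R replicate 3 (adjusted p from 0.051 to 0.0852). The median of the list was 0.05 in A549 and 0.09 in HTB56. With the replicate block 1 gene of the list differed in its change upward, TLR2 (0.0316), and 2 downward, CEMIP2 and HYAL4 (9.82% and 10.6% of all genes), against 0 and 1 without it. HABP4 was also called lower in HTB56 with the block (adjusted p = 0.0441).

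The line contrast in this list was led by TLR4, an innate immune receptor that also responds to hyaluronan fragments. It read 3.78, 5.14 and 3.92 in A0R and 9.35, 9.70 and 9.50 in H0R, a difference of 5.23 (SE 0.26, limma adjusted p = 4.14e-10) and 5.67 without A0R replicate 2. GUSB, a lysosomal glucuronidase gene, was also higher in H0R (0.60, SE 0.10). CEMIP, a hyaluronan-binding protein gene of hyaluronan breakdown, was lower by -1.46 (SE 0.28) and HABP2, a hyaluronan-binding serine protease gene, by -1.02 (SE 0.12). In all 4 were higher and 4 lower in H0R than in A0R, and 4 and 4 in H3R than in A3R. Without A0R replicate 2 the call of C1QBP was lost (adjusted p = 0.0748), which left 3 higher in H0R.

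Matrix partners of hyaluronan gave 1 called lower of 14 tested in A549 and 2 called higher in HTB56, with medians of 0.02 and 0.08. ITIH2, a heavy chain of inter-alpha-inhibitor, read 5.68, 5.92 and 6.59 in A0R and 5.02, 4.67 and 4.89 in A3R, and fell by -1.20 (SE 0.18, limma adjusted p = 0.00186). Without A0R replicate 2 the fall was -1.28. VCAN, the versican gene of a large proteoglycan that binds hyaluronan, read 7.08, 7.11 and 7.26 in H0R and 8.23, 8.16 and 8.32 in H3R, a rise of 1.08 (SE 0.12, limma adjusted p = 1.59e-05). In A549 VCAN was 8.60 ± 0.17 (SD, n = 3) before and 8.71 ± 0.19 after selection, and the changes of the lines differed by 0.97 (adjusted p = 0.00153). HAPLN3, a link protein gene, rose in HTB56 by 0.45 (SE 0.10). PTX3, a pentraxin that stabilises hyaluronan matrices with TSG-6, was 4.07 ± 0.11 in A0R and 7.30 ± 0.25 in H0R (difference 3.23, SE 0.15), and AMBP, the precursor of bikunin, was lower in H0R by -1.71 (SE 0.14). Between the parents 1 of 14 was higher and 5 lower in HTB56, and 3 lower without A0R replicate 2, which lost the calls of ITIH1 and HAPLN4.

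Of 10 tested CD44 partners, ligands and processing genes, 0 were called in A549 (0 at an unadjusted p below 0.05) and 6 in HTB56, 2 higher and 4 lower, with medians of -0.09 and 0.00. SRGN, which encodes serglycin, a proteoglycan that can bind CD44, read 6.19, 6.05 and 6.32 in H0R and 8.48, 8.21 and 8.61 in H3R, a rise of 2.25 (SE 0.12, limma adjusted p = 1.29e-08). SPP1, which encodes the CD44 ligand osteopontin, read 6.51, 6.66 and 6.88 in H0R and 5.30, 4.91 and 5.24 in H3R, a fall of -1.53 (SE 0.15, adjusted p = 4.05e-06). SLC7A11, the cystine transporter subunit held at the surface by CD44 variants, fell by -1.51 (SE 0.14), and the sheddase gene ADAM10 rose by 0.36 (SE 0.10). ADAM17 (-0.74, SE 0.10, limma adjusted p = 0.000115) and MMP14 (-0.89, SE 0.15, adjusted p = 0.000597) were called lower as well. The ADAM10 call was lost without H0R replicate 1 or 2 or H3R replicate 1 or 3 (adjusted p from 0.0781 to 0.102) and with median centring (0.0506). Under each of these 5 alternatives 1 gene of the list was called higher in HTB56. In A549 both ligand genes were far brighter, with SRGN at 11.08 ± 0.13 and SPP1 at 11.27 ± 0.10 (SD, n = 3) in A0R against 6.19 ± 0.14 and 6.68 ± 0.19 in H0R. Between the parents 1 of 10 genes was higher in HTB56, the membrane protease gene MMP14 (1.81, SE 0.15), and 6 were lower.

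HMMR is transcribed in dividing cells, and 12 further spindle and division genes were read beside it. Limma called 0 of 12 in A549 (2 at an unadjusted p below 0.05) and 1 in HTB56, MKI67, which encodes the proliferation antigen Ki-67. MKI67 rose by 0.85 (SE 0.14, limma adjusted p = 0.000476), from 8.39 ± 0.08 to 9.24 ± 0.10 (SD, n = 3), and its change differed from that in A549 (0.90, adjusted p = 0.00723). With the replicate block NUSAP1, a spindle protein gene, was also called lower in HTB56 (-0.34, limma adjusted p = 0.0178). The medians of the 12 genes were -0.06 and -0.10. Between the parents 6 were higher in HTB56, led by TPX2, a spindle assembly factor (1.03, SE 0.10), and CENPE (0.91, SE 0.15), and 2 were lower, MKI67 (-1.42) and TOP2A (-0.50). Without A0R replicate 2 the calls of KIF11 (adjusted p = 0.0686) and BUB1 (0.115) were lost, and 4 were higher. Between the selected lines 4 were higher, or 7 with the replicate block (29.3% of all genes), and 2 lower.

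**Figure D4:**
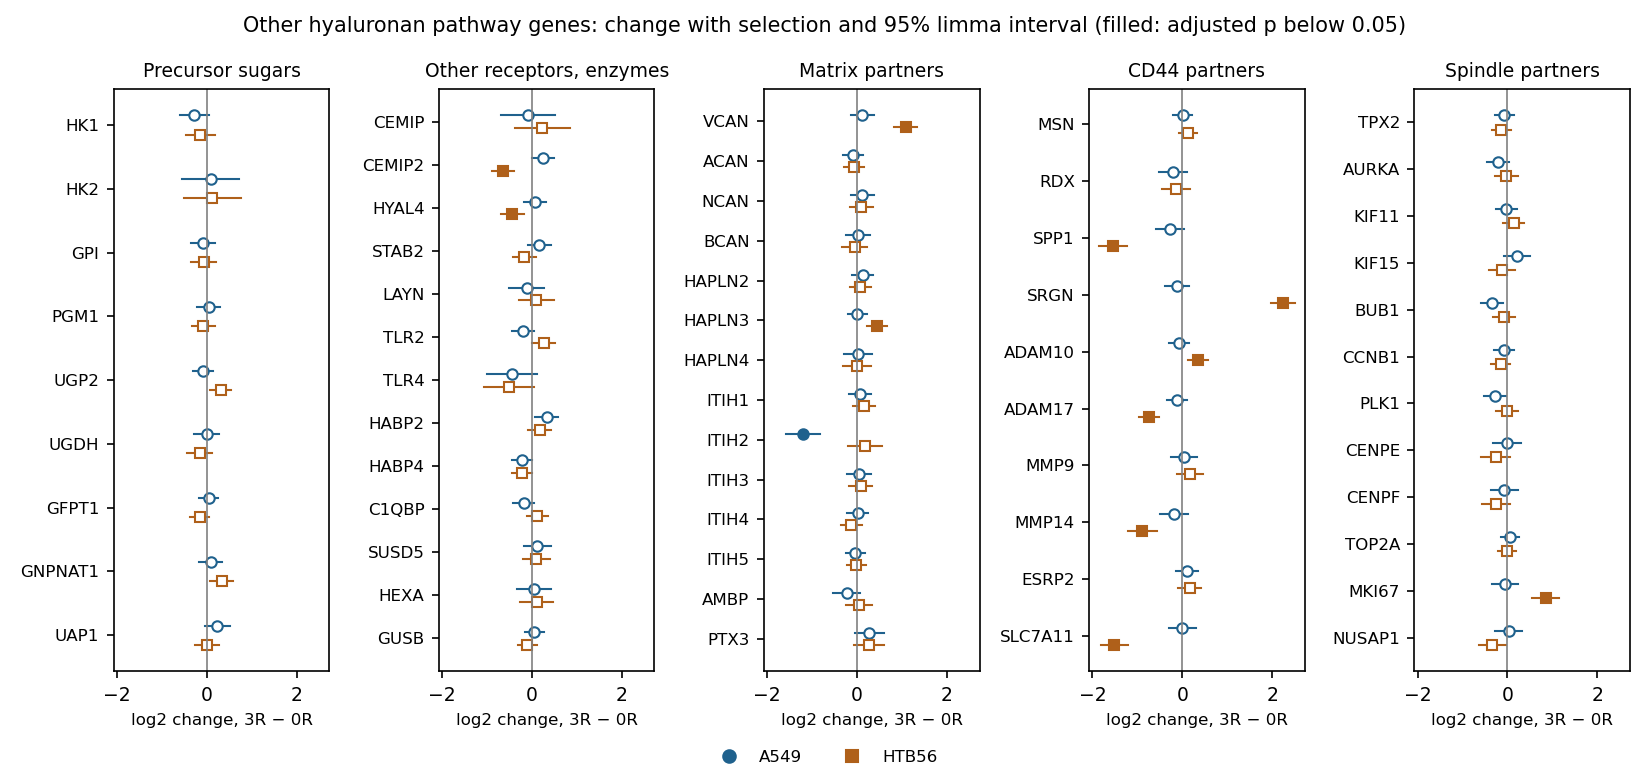
Log2 change with selection in A549 (circles) and HTB56 (squares) for the tested genes of 5 further lists, with 95% limma intervals as lines and filled markers where the adjusted p is below 0.05. ITIH2 (-1.20) is the only filled circle, while filled squares include SRGN (2.25), VCAN (1.08), SPP1 (-1.53), SLC7A11 (-1.51) and CEMIP2 (-0.64).

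The genes whose profile was most like that of HAS2 were sought over the 12 arrays, each gene centred on its own mean, by the root mean square difference from HAS2. The nearest were ZNF185 (0.45), BDNF (0.47), GLIPR1 (0.48), CADPS2 (0.49) and TMEM45A (0.50), against a median of 0.99 over all genes. BDNF, which encodes a neurotrophin, averaged 5.35 in A0R, 6.19 in A3R, 6.59 in H0R and 7.07 in H3R. GLIPR1 went from 7.38 to 7.96 in A549 and from 8.37 to 8.99 in HTB56, in the group order of HAS2 except that H0R lay above A3R. ZNF185, CADPS2 and TMEM45A moved more in HTB56, by 1.78, 1.18 and 1.92, than in A549, by 0.54, 0.54 and 0.48. The choice used these same arrays, so the likeness is a description.

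The label of epithelial cancer cells was checked on 6 markers, and all 6 were called lower in H0R than in A0R, with a median of -2.06. The keratin genes KRT8 and KRT18 kept group means of at least 11.20 and 12.64. CDH1, the E-cadherin gene, averaged 9.53 in A0R and 4.55 in H0R, while EPCAM differed by -1.70, KRT7 by -2.06 and KRT19 by -2.31. With selection CDH1 fell by 0.85 and KRT19 rose by 1.14 in A549, and EPCAM rose by 1.02 and KRT7 fell by 0.91 in HTB56. Fibroblast markers were mixed in HTB56: 4 of 7 tested were called higher in H3R than in H0R, COL1A1, COL3A1, LUM and PDGFRA. The others, COL1A2 (0.05), THY1 (-0.08) and PDGFRB (-0.18), were not called. The log2 of the summed signal of the 8 listed was 8.72 to 8.96 in H0R and 9.60 to 9.71 in H3R. In A549 limma called 0 of 7 (1 at an unadjusted p below 0.05), and the sums were 8.26 to 8.41 and 8.29 to 8.46. With the replicate block LUM was called higher in A549 too (0.91, limma adjusted p = 0.0169). LUM read 3.23, 3.12 and 3.33 in A0R, below the 20th percentile, and was above it on 9 of 12 arrays. It thus passed the filter through the groups where it was higher, and its difference from A0R is a description. DCN, a defining fibroblast gene, was above the 20th percentile on 0 of 12 arrays. Leukocyte markers had 2 of 8 called higher in H3R, LYZ and CD68, while PTPRC and MRC1 were above that percentile on 0 arrays. Their sums were 9.21 to 9.40 in H0R and 9.68 to 10.01 in H3R. Signals were summed unlogged, so these sums rest mostly on CD68, the brightest of the list, at 8.86 in H0R and 9.51 in H3R. For leukocyte markers in A549 limma called 0 of 8 (unadjusted p below 0.05 for 1), with sums of 9.34 to 9.61 in A0R and 9.10 to 9.25 in A3R. With the block CD68 was called lower there (-0.44, limma adjusted p = 0.0092). Endothelial markers had 0 of 5 called in either line (0 at an unadjusted p below 0.05 in both), with sums from 7.34 to 7.63. The brightest of them was CLDN5, with group means from 6.61 to 6.78. The part of other cells in the HAS2 and VCAN values was not tested.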

How the data were processed

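RNA of 12 samples (4 groups of 3) was hybridised to Affymetrix arrays. The submitters' processing notes name RMA and Affymetrix Expression Console for the deposited log2 values, without versions or a genome build. Of 33297 probe sets, 19460 had 1 gene symbol, 1754 several and 12083 were not listed. Probe sets above the 20th percentile on at least 3 arrays were kept, with the brightest per gene. Tests used limma 3.58.1 in R 4.3.3 (lmFit, eBayes, two-sided, Benjamini-Hochberg over all 16939 genes) and were checked on simulated data. Figures used Python 3.11.15 and matplotlib 3.10.9. Precision is limited by the number of arrays.

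The members and lists were chosen with earlier results of these data known. Named genes are all members, up to 2 called genes per list, direction and comparison (not all are printed), and the 5 genes nearest to HAS2. Genes outside that rule, named for a call that an alternative changed or to complete the calls of a list, and markers were named after their values were seen.

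Groups share replicate numbers. Deviations from group means correlated at 0.16 to 0.50 between arrays of the same number and -0.37 to 0.18 otherwise, and for 12 of 12 arrays the best match had the same number. The numbers therefore pair the samples, which comes from the data and not from the labels. The replicate block is given beside each call of the 7 genes that it changes.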

Additional observations from a re-analysis of the deposited data

How the results depend on the processing

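Over 22 alternatives, 12 of them leaving out 1 array, HAS2 kept its direction and call in the 4 comparisons in which it was called, with changes from 1.28 to 1.71 in A549 (limma adjusted p from 1.68e-05 to 0.036) and from 1.22 to 1.61 in HTB56 (1.17e-06 to 0.00521). Of 758 values of the 7 genes under the alternatives, 739 kept their side of the threshold, 13 lost a call, 6 gained one and 0 reversed a called direction. The number of the 7 genes called with the replicate block was 4 in H0R against A0R. At a threshold of 0.01 it was 1 in H3R against H0R and 2 in H3R against A3R. Leaving out 1 array gave 1 to 2 called in H3R against H0R. The block changed no other call of these genes beyond HMMR, TNFAIP6 and HYAL2 between the lines. In the further lists and markers it added 22 calls and lost 0, among them the differences of changes of UGP2 (0.0423), HAPLN3 (0.0174), ADAM10 (0.016) and LUM (0.0306). The LUM value is a description, since its A0R arrays were near background. Median centring and cyclic loess shifted the median of all genes by at most 0.04 in size. The direction of calls over all genes depended more on the scaling. With median centring the share of calls that were higher in H3R than in H0R went from 44% to 36.5%. With cyclic loess the share higher in H3R than in A3R went from 55.8% to 48.4%. Of 2055 alternative values of the 94 called results in the further lists, 79 lost the call and 0 reversed. TNFAIP6 was left out by the filter at the 40th percentile. Background correction and slide could not be varied from the deposited values, and signal near background limits TNFAIP6, HYAL4 and, in A0R, LUM.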
